A study of Mus musculus with 15 samples.

Results

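The 35 genes described here encode PPARalpha, several of its known targets, and the enzymes of fatty acid oxidation and ketogenesis. They were chosen by name from knowledge of the pathway, with earlier results of these data known. They were matched by gene symbol to the Ensembl IDs of the deposited table. All 35 were found among its 54281 genes, and all 35 were among the 11568 genes that passed the filter on low values. Liver RNA was sequenced in 15 libraries, each of 1 male C57BL6J mouse of 9.5 months. Mice of the DEN/HFD groups had received 25 mg/kg diethylnitrosamine (DEN), a liver carcinogen, at 2 weeks of age, then chow, and then for 32 weeks a diet high in fat (HFD), with lard giving 60% of its energy. Mice of the chow groups had received the vehicle in place of DEN and stayed on chow. Within each diet, mice were injected intraperitoneally with saline or with MCOPPB, which binds the nociceptin receptor, an opioid-like receptor. The dose was 5 mg/kg on 5 days followed by 2 days of washout, for 3 cycles and 21 days. On chow, 3 mice had saline and 5 had MCOPPB, and under DEN/HFD, 4 had saline and 3 had MCOPPB. No group received DEN without the high fat diet or the diet without DEN, so the 2 cannot be told apart and are called DEN/HFD throughout. The labels name the libraries as separate mice and say nothing of feeding state or hour of collection.

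The liver burns fatty acids when glucose is scarce. Fatty acids bound to carrier proteins are activated to acyl-CoA, carried into mitochondria as carnitine esters, and shortened by repeated rounds of dehydrogenation, hydration, dehydrogenation and thiolysis. Very long chains are first shortened in peroxisomes, and excess acetyl-CoA is turned into ketone bodies. PPARalpha, a nuclear receptor that binds fatty acids and pairs with RXR on direct repeats of the motif AGGTCA, is known to drive many of these genes in hepatocytes, most of all in fasting. The design allows each gene to be compared between MCOPPB and saline on each diet, and between DEN/HFD and chow under each treatment.

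Depth estimated from the smallest steps of the values was 9.32 M to 18.7 M assigned reads per library. All 8 hepatocyte markers (among them Alb, Apoa1 and Ttr) were detected in every group, with summed levels of 1661779 to 3943551 normalized counts. The 8 markers of macrophages and Kupffer cells summed to 752 to 1089.9 in chow saline, 1489.6 to 2682 in chow MCOPPB, 1384 to 3061 in DEN/HFD saline and 1656 to 3283 in DEN/HFD MCOPPB. Muscle markers summed to as much as 3167 in a chow saline library and 2732 in a chow MCOPPB library, against 55.7 at most in the DEN/HFD groups. Of the 4 kidney and adrenal markers, Kap, Umod and Cyp11b1 were at 0 in all libraries. The RNA integrity number listed first in the labels was 9.90 to 10.0 in chow MCOPPB. This was above the 9.00 to 9.70 of chow saline, the 8.40 to 9.20 of DEN/HFD saline and the 8.70 to 9.20 of DEN/HFD MCOPPB. Transcripts of the mitochondrial genome took 12% to 31.0% of the normalized counts, and stood apart at 29.3% in chow saline 2 and 31.0% in chow MCOPPB 4. As RNA came from whole tissue, fewer cells of a type and less RNA per cell cannot be told apart.

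Promoter sequences were taken from RefSeq (GRCm38.p6), which held a start site for 29 of the 35 genes, and are shown because PPARalpha with RXR is known to bind direct repeats there. The window from 250 bases before to 50 after the start was searched on both strands for a direct repeat, AGGTCA followed by any base and AGGTCA again, with at most 2 mismatches outside that base. A match was found in 4 of 29 windows (13.8%), those of Fabp1, Creb3l3, Slc25a20 and Etfa, and in 3.81% of 27025 windows of all RefSeq promoters. The promoters of Fabp1 and Etfa, and that of Fgf21, which held no match, are printed up to the gene's first annotated base, with the match in capitals. For Slc25a20, whose match begins 7 bases after the RefSeq start, the match is printed with 8 bases on each side. Each is written 5′ to 3′ on the gene's strand: Fabp1 at chr6:71199629-71199826 (plus strand), Etfa at chr9:55512244-55512493 (minus), Slc25a20 at chr9:108662134-108662162 (plus) and Fgf21 at chr7:45615491-45615740 (minus).
Fabp1: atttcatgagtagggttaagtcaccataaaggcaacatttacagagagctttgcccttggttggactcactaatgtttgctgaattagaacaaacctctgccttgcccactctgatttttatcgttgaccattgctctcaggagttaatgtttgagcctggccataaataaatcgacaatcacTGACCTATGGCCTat
Etfa: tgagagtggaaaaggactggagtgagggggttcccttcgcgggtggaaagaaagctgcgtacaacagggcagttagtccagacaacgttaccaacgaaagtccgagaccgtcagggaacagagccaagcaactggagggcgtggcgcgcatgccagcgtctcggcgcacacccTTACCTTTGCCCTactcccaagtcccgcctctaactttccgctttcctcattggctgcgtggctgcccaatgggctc
Slc25a20: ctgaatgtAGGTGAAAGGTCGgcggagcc
Fgf21: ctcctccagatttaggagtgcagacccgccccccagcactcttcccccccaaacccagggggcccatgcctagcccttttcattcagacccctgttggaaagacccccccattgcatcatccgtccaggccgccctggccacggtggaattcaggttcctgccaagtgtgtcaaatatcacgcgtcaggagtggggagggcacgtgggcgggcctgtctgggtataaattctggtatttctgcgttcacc
The match of Fabp1, on the strand opposite to the gene, begins 67 bases before the RefSeq start, which lies downstream of the first annotated base where the printed stretch ends. It reads AGGCCATAGGTCA and has 1 mismatch. The matches of Etfa and Slc25a20 have 2 mismatches each. A match is a description of these letters and not of a bound site.

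The genes spanned 4 orders of magnitude in level per length of annotated exon. Fabp1, the fatty acid binding protein of liver, stood at 303959 normalized counts per kilobase over all 15 libraries. Next came the peroxisomal thiolase Acaa1b at 6401 and the mitochondrial thiolase Acaa2 at 5134 per kilobase. At the other end were Ppara at 63.6, the hormone Fgf21 at 31.0 and the pyruvate dehydrogenase kinase Pdk4 at 23.1 per kilobase. The chain-length family of acyl-CoA dehydrogenases stood at 1449 (Acadl, long), 1099.6 (Acadm, medium), 1059 (Acadvl, very long) and 329 (Acads, short) per kilobase. Within groups, the SD of single genes on the log2 scale ran from 0.11 (Etfa) to 0.81 (Acadm), with a median of 0.34 for the 35 genes and 0.30 for all genes tested.

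**Figure D1:**
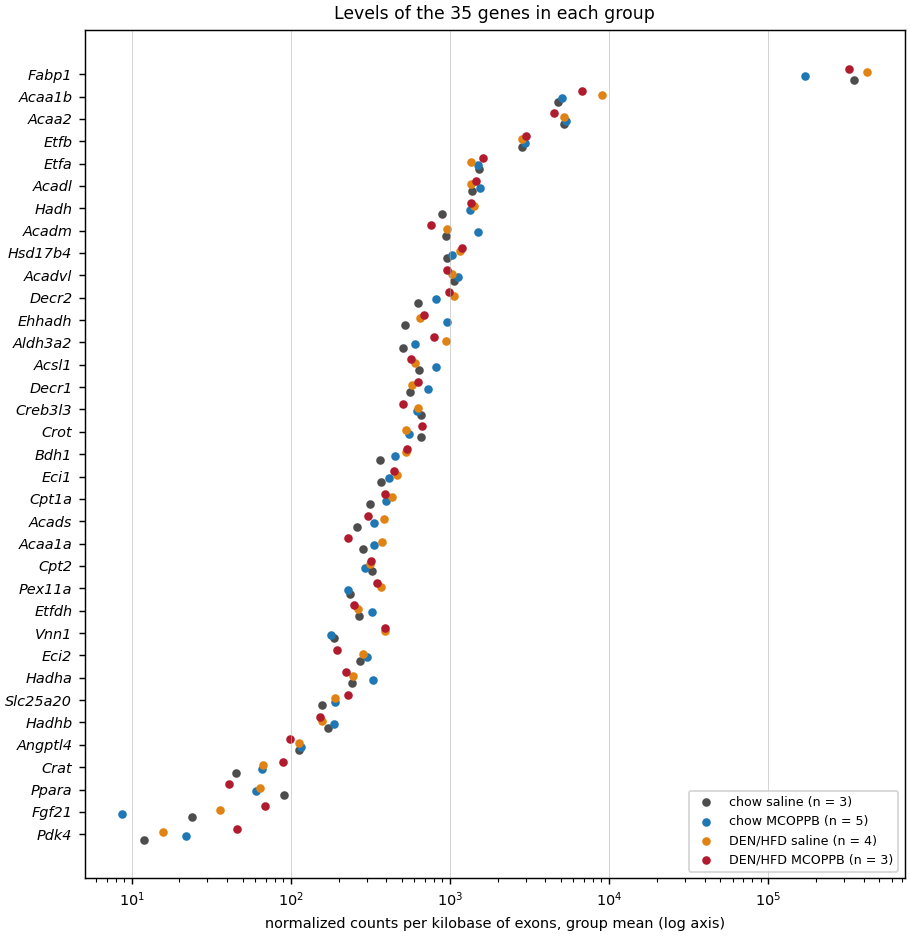
Group means of the 35 genes in normalized counts per kilobase of annotated exon (horizontal log axis), 1 row per gene and 1 colour per group, ordered by the mean over all 15 libraries. Fabp1 lies far to the right of all others, and Ppara, Fgf21 and Pdk4 lie at the left end.

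With limma over all genes, and a call at an adjusted p under 0.05, 1 of the 35 genes was called in the 4 comparisons. It was Fgf21, higher in DEN/HFD than in chow under MCOPPB, in a comparison with 66 calls (0.571% of 11568 genes). MCOPPB against saline on chow gave 0 calls among the 35 by limma, 3 at an unadjusted p under 0.05 (8.57%, beside 9.06% of all genes), and 37 calls over all genes (0.320%). Those 3, 2 higher and 1 lower, became 8 higher and 1 lower when chow saline 1 was left out, 7 and 1 when chow MCOPPB 4 was, 6 and 1 with the RNA integrity number listed first as a covariate, and 0 and 1 with that listed second. Under DEN/HFD, the same contrast gave 0 calls by limma and 3 at an unadjusted p under 0.05 (8.57%, beside 4.74%), with 3 calls over all genes (0.0259%). DEN/HFD against chow with saline gave 0 calls by limma and 6 at an unadjusted p under 0.05, all higher (17.1%, beside 11.0% of all genes in either direction and 5.46% higher), with 6 calls over all genes (0.0519%). The 6 became 3 without chow saline 2 and 10 without chow saline 1. With MCOPPB, 6 of 35 were under an unadjusted p of 0.05, 5 higher and 1 lower (17.1%, beside 12.3%). This split became 0 higher and 4 lower with the RNA integrity number listed first, which differs between these groups as it does between the chow groups, and 5 higher and 4 lower without chow MCOPPB 4.

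The signs of the differences were as follows. On chow, 27 of 35 genes were higher with MCOPPB (50.1% of all genes tested were), with a median log2 difference of 0.15 beside 0.00 over all genes. Without chow saline 2, the library with 29.3% mitochondrial transcripts, the count was 20 of 35 and the median 0.04. With the RNA integrity number listed first as a covariate, the count was 27 and the median 0.34. Under DEN/HFD, 15 of 35 were higher with MCOPPB (49.3% of all genes), with a median of -0.05, and without DEN/HFD MCOPPB 2 the median was 0.02. With the RNA integrity number listed second as a covariate, 7 of 35 were higher and the median was -0.16. Between the diets, 25 of 35 were higher in DEN/HFD with saline (51.4% of all genes) with a median of 0.21, and 18 of 35 with MCOPPB (49.4%) with a median of 0.05. The former median was 0.40 without chow saline 1 and 0.08 without chow saline 2. The latter was 0.14 without chow MCOPPB 2 and turned to -0.05 without chow MCOPPB 1 or 4, and to -0.14, with 12 of 35 higher, with the RNA integrity number listed first. Since many of the 35 genes move together between livers, as the last results describe, these are counts and not independent observations.

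**Figure D2:**
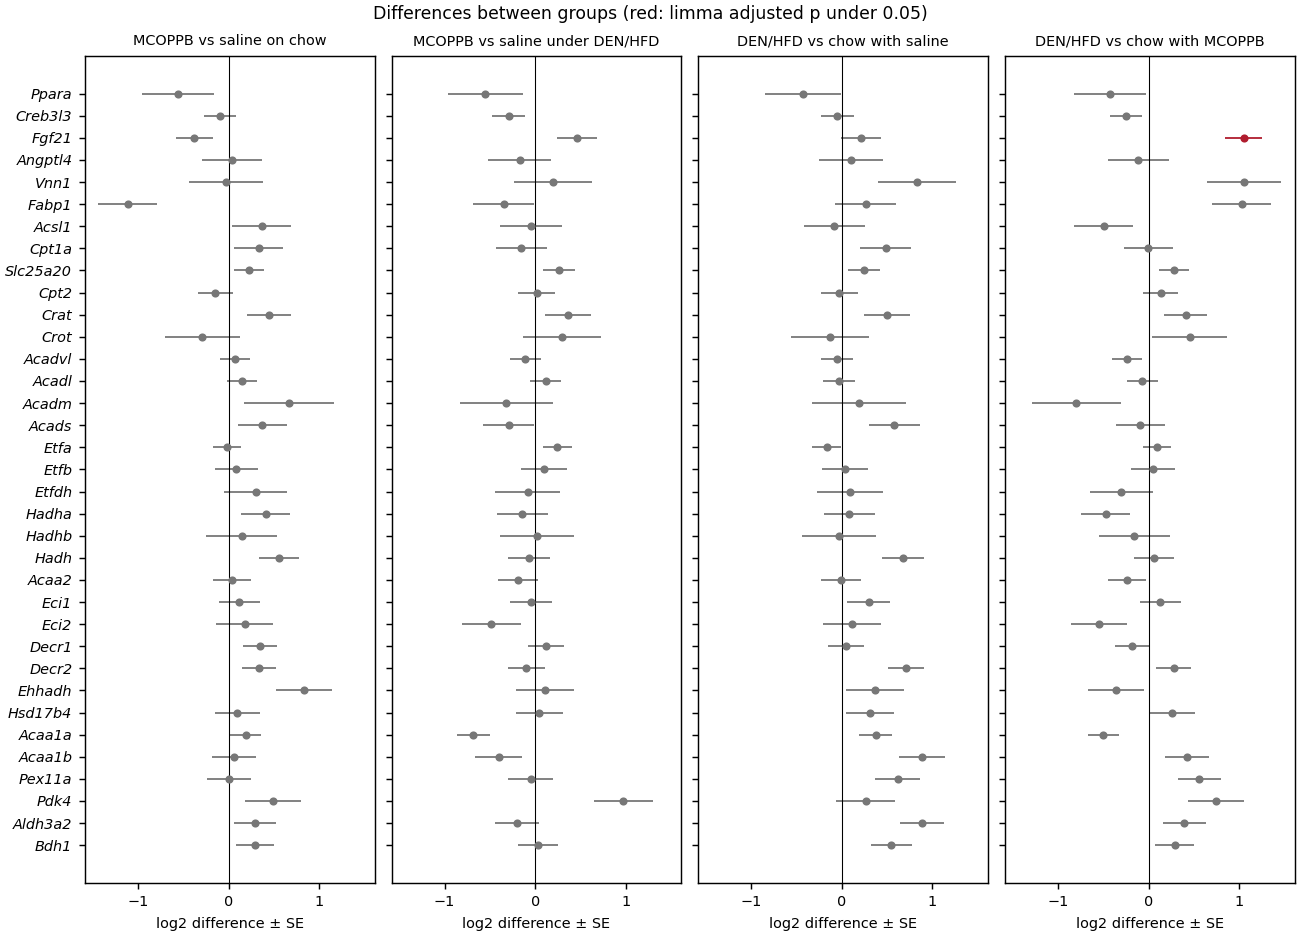
Log2 differences of the 35 genes (horizontal axis, points) with their standard errors (lines) in 4 comparisons, 1 panel each, with genes in the order of their roles. Fgf21 under MCOPPB, in the right panel at 1.05, is the point in red and the sole call, and most other lines cross or come near 0.

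Ppara, the receptor itself, had the widest spread among the regulators. Its normalized counts were 459, 382 and 208 in chow saline, 131, 459, 305, 77.4 and 193 in chow MCOPPB, 153, 162, 417 and 247 in DEN/HFD saline and 151, 43.4 and 274 in DEN/HFD MCOPPB. The groups overlapped in all 4 comparisons. With diet as an additive term, the log2 difference of Ppara between MCOPPB and saline was -0.55 ± 0.28 (SE), with a limma adjusted p of 0.791. Creb3l3, a membrane-bound transcription factor known to act with PPARalpha in fasting, was at 1847, 1818, 1782 and 2219 in DEN/HFD saline and 1456, 1562 and 1616 in DEN/HFD MCOPPB. The latter were all lower, a log2 difference of -0.29 ± 0.18 (SE), but did not pass the test (limma adjusted p = 1.00). On chow, Creb3l3 ranged over 1605 to 2259 with saline and 1671 to 2462 with MCOPPB.

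Fgf21, the hormone that liver secretes in fasting and under nutrient stress, lies on the minus strand at chr7:45613886-45615490 (GRCm38). It had 5.26, 8.10, 7.90, 2.54 and 17.8 normalized counts in chow MCOPPB and 47.7, 64.6 and 84.3 in DEN/HFD MCOPPB. The groups did not overlap, and the means, 8.32 ± 5.75 (SD, n = 5) and 65.5 ± 18.3 (SD, n = 3), differed 7.88-fold. Fgf21 rose in DEN/HFD against chow under MCOPPB by 1.05 ± 0.21 (SE) on the log2 scale of the deposited values, with a limma adjusted p of 0.0258. That scale compresses genes with few reads toward 0, which is why the log2 difference is smaller than the ratio of means. With saline, Fgf21 was at 40.9, 9.94 and 17.6 on chow and 54.3, 22.7, 45.1 and 13.9 under DEN/HFD, and these livers overlapped with each other and with the MCOPPB livers of their diet.

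Counts of Fgf21 were low: 22.5 normalized counts marked the filter, which 7 of 15 libraries reached and none of the chow MCOPPB libraries. The call was lost with all genes kept (limma adjusted p = 0.0595), with the RNA integrity number listed first as a covariate (log2 difference 0.71, adjusted p = 0.403) or that listed second (adjusted p = 0.0641), and without chow MCOPPB 1, 2 or 3 or any of the DEN/HFD MCOPPB libraries in turn (adjusted p of 0.0511 to 0.194). A stricter filter removed the gene. The share of RNA integrity in the result was not tested. The MCOPPB effect on Fgf21 was -0.38 ± 0.21 (SE) on chow and 0.46 ± 0.22 (SE) under DEN/HFD, and the difference of the 2 effects, 0.84 ± 0.30 (SE), had a p of 0.0123 and a limma adjusted p of 0.718.

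Vnn1, a pantetheinase anchored at the cell surface and a known PPARalpha target, had 484, 566, 607, 274 and 232 normalized counts in chow MCOPPB and 913, 865 and 1046 in DEN/HFD MCOPPB. The DEN/HFD livers were all higher, with a log2 difference of 1.06 ± 0.41 (SE) and a limma adjusted p of 0.292. With saline, the values of Vnn1 were 601, 202 and 564 on chow and 1448, 934, 1128 and 252 under DEN/HFD, where DEN/HFD saline 4 lay among the chow livers. Angptl4, a secreted inhibitor of lipoprotein lipase, overlapped between all groups, with 194 to 633 in chow saline, 179 to 616 in chow MCOPPB, 267 to 489.9 in DEN/HFD saline and 243 to 482 in DEN/HFD MCOPPB.

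**Figure D3:**
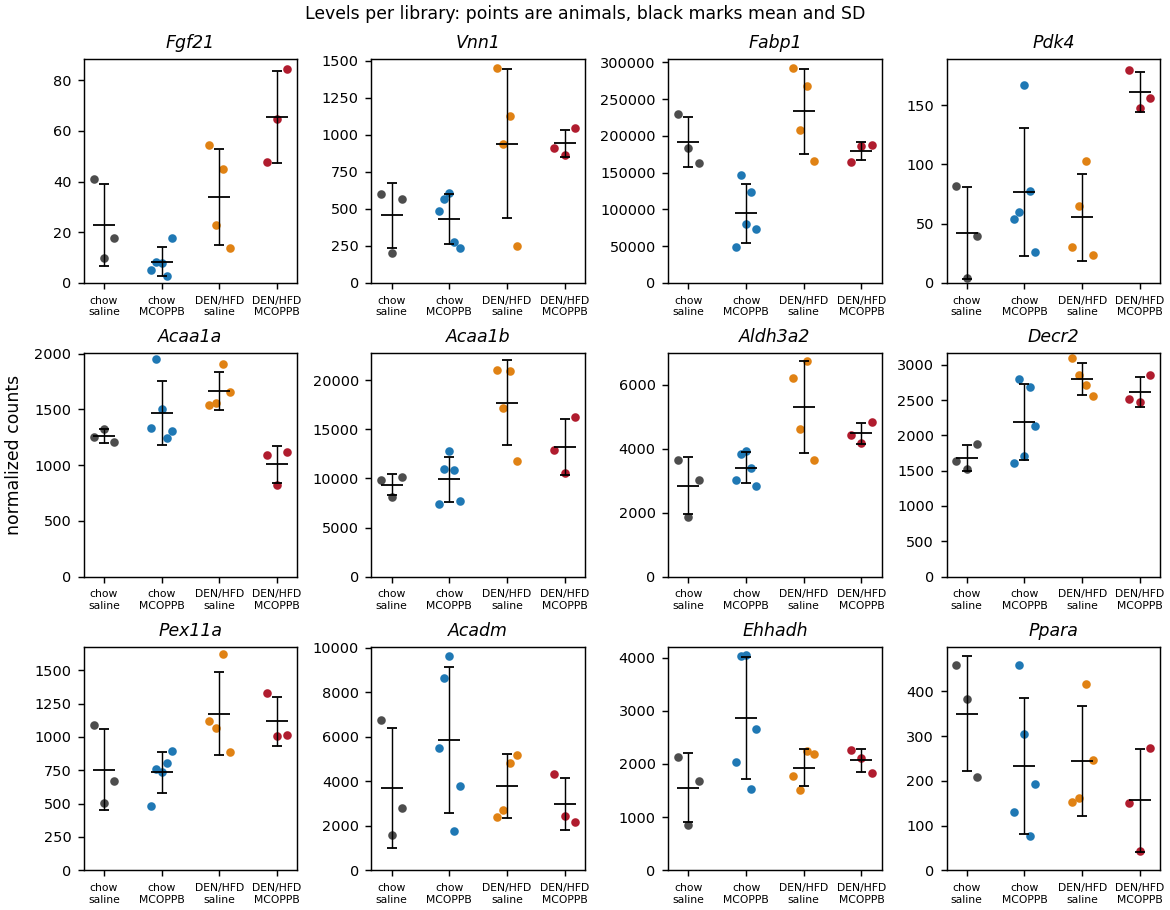
Normalized counts (vertical axes, each from 0) of 12 of the genes in the 15 libraries, with points for mice and black marks for the group mean and SD. The 5 chow MCOPPB livers of Fgf21 lie between 2.54 and 17.8, below the 3 DEN/HFD MCOPPB livers, and the chow MCOPPB livers of Fabp1 all lie below the chow saline livers.

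Fabp1, which carries fatty acids through the hepatocyte cytosol and lies at chr6:71199827-71205023, was the 1 gene of the 35 whose groups did not overlap between MCOPPB and saline on chow (4.77% of all genes did not). Its normalized counts were 229706, 183174 and 163535 with saline and 48602, 146178, 79970.1, 123863 and 73786 with MCOPPB. All 5 MCOPPB livers were below the 3 saline livers, with a ratio of means of 0.492 and a log2 difference of -1.12 ± 0.32 (SE), which did not pass the test (limma adjusted p = 0.233). Under DEN/HFD, it was at 292325, 208336, 268130.4 and 165381 with saline and 164941, 185781 and 187636 with MCOPPB, and these overlapped. The DEN/HFD MCOPPB livers were above all chow MCOPPB livers by 1.03 ± 0.32 (SE) (log2, limma adjusted p = 0.186). Acsl1, which activates long-chain fatty acids to acyl-CoA, overlapped between all groups and ranged over 5582 to 14017 in chow MCOPPB alone.

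Genes of the carnitine shuttle gave no call. Cpt1a, whose product loads acyl groups onto carnitine at the outer mitochondrial membrane and limits the rate of oxidation, was at 3526, 1750.4 and 1987 in chow saline, 2144, 4681, 2791, 2297 and 3371 in chow MCOPPB, 2478, 3386, 3785 and 3569.6 in DEN/HFD saline and 3728, 2311 and 2909 in DEN/HFD MCOPPB. Its groups overlapped in each comparison. Cpt2, which returns the acyl group to CoA inside, stayed within 441 to 907 in chow MCOPPB and had a smaller range in each of the other groups. Slc25a20, the exchanger of the inner membrane, was at 863 to 986 in DEN/HFD saline and 1063 to 1181 in DEN/HFD MCOPPB, without overlap. Crat, the acetyltransferase, was at 264 to 416 and 457 to 531 in the same groups, again without overlap. With diet as an additive term, the MCOPPB difference was 0.41 ± 0.17 (SE) for Crat and 0.24 ± 0.12 (SE) for Slc25a20, with limma adjusted p of 0.666 and 0.776. The latter difference was 0.07 with the RNA integrity number listed second as a covariate. Crot, the peroxisomal octanoyltransferase, ranged over 1023 to 5578 within chow MCOPPB and overlapped between groups.

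Among the dehydrogenases of the first step, Acadm had the largest spread of the 35 genes. Its normalized counts were 6745, 1579 and 2819 in chow saline, 5508, 8644, 9624, 1787 and 3793 in chow MCOPPB, 2391, 2700.1, 4823 and 5187 in DEN/HFD saline and 4326, 2434 and 2179.7 in DEN/HFD MCOPPB. The groups overlapped in all comparisons. Acadl and Acadvl varied little, within 2547 to 3534 and 2505 to 3447 in chow MCOPPB, and Acads had its lowest value, 282, in chow saline 2. Etfa and Etfb, the subunits of the flavoprotein that takes up the electrons, and Etfdh, which passes them to the respiratory chain, had 0 calls by limma and 0 at an unadjusted p under 0.05 in the 4 comparisons. Of the 75-base windows in Etfb transcripts, 52.5% also occurred in the overlapping gene Gm45233, so reads could be lost or split there. Acadvl shares 42.9% of its exon bases with Dvl2 on the opposite strand. The kit marked strand, and how strand was counted is not given in the sources used here.

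Hadha and Hadhb, the subunits of the mitochondrial trifunctional protein, lie head to head, at chr5:30118304-30155162 on the minus strand and chr5:30155248-30184593 on the plus strand. The 85.0 bases between them, at chr5:30155163-30155247, are shown as the stretch from which both genes are read outward, with no part in capitals.
Hadha and Hadhb: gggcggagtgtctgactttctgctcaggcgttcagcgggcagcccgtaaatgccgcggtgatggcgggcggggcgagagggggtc
Hadha was at 3085, 1714 and 1572 normalized counts in chow saline, 2944, 4089.8, 3500.5, 1548 and 2299 in chow MCOPPB, 1977, 1859, 2369 and 2453 in DEN/HFD saline and 2136, 1925 and 1782 in DEN/HFD MCOPPB. Hadhb had its lowest values, 458 to 1529 and 534 to 1961 being the chow ranges, in the same libraries as Acadm, chow saline 2 and chow MCOPPB 4. Of its 75-base windows, 51.0% also occurred in Gm13910. Hadh, the dehydrogenase of medium and short chains, was at 5115, 3302 and 4938 in chow saline and 7295, 6684, 8082 and 6283 in DEN/HFD saline. The DEN/HFD livers were all higher, by 0.68 ± 0.23 (SE) on the log2 scale, and this did not pass the test (limma adjusted p = 0.280). In chow MCOPPB, Hadh was at 5608, 9003, 7404, 4723 and 6425, which overlapped with chow saline, and the log2 difference was 0.56 ± 0.22 (SE) (adjusted p = 0.465) and 0.36 without chow saline 2.

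Enzymes that prepare unsaturated chains included Decr2, the peroxisomal dienoyl-CoA reductase. It was at 1638, 1525 and 1879 in chow saline and 3089, 2859, 2711 and 2554 in DEN/HFD saline, without overlap. The means differed 1.67-fold, and the log2 difference was 0.71 ± 0.20 (SE) with a limma adjusted p of 0.206. Its mitochondrial counterpart Decr1 differed by 0.34 ± 0.19 (SE) between MCOPPB and saline on chow (adjusted p = 0.635). Eci1 and Eci2, the isomerases, overlapped between groups in all 4 comparisons.

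Among peroxisomal genes, Acaa1b and Pex11a were, like Decr2, of the 6 genes higher in DEN/HFD with saline at an unadjusted p under 0.05 (5.46% of all genes were). Acaa1b, a thiolase, was at 9809, 8119.6 and 10169 normalized counts in chow saline and 21016, 17216, 20914 and 11799.7 in DEN/HFD saline, all higher under DEN/HFD. The log2 difference was 0.88 ± 0.26 (SE) (95% interval 0.35 to 1.42), with a limma adjusted p of 0.213. With MCOPPB it was at 7352, 10917, 12764, 10814 and 7743 on chow and 12929.7, 10556 and 16249.7 under DEN/HFD, with overlap. Pex11a, which promotes peroxisome division, was at 485 to 893 in chow MCOPPB and 1005 to 1331 in DEN/HFD MCOPPB, without overlap, a log2 difference of 0.56 ± 0.24 (SE) (adjusted p = 0.331). That difference was gone, at -0.0029, with the RNA integrity number listed first as a covariate.

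Acaa1a, the paralog of Acaa1b, differed between the diets in opposite directions with the 2 treatments. With saline it was at 1252, 1326 and 1209 on chow and 1544, 1559.8, 1909 and 1655 under DEN/HFD, all higher. With MCOPPB it was at 1337, 1951, 1503, 1244 and 1309 on chow and 1095, 818 and 1115 under DEN/HFD, all lower. Within DEN/HFD, the MCOPPB livers were all below the saline livers, with a log2 difference of -0.69 ± 0.18 (SE) and an adjusted p of 0.446 (limma). The difference of the MCOPPB effects was -0.87 ± 0.25 (SE), with a p of 0.00280 and an adjusted p of 0.522. Of the 75-base windows, 20.6% of those of Acaa1a and 28.5% of those of Acaa1b occurred in the other gene, so the counting could have split reads between them.

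Ehhadh, the peroxisomal bifunctional enzyme, was at 2134, 855 and 1679 in chow saline and 2037, 4039, 4049, 1524 and 2657 in chow MCOPPB. The highest 3 values were of MCOPPB livers, but the groups overlapped, and the log2 difference was 0.84 ± 0.31 (SE) with a limma adjusted p of 0.404. It was 0.48 without chow saline 2 and 1.48 with the RNA integrity number listed first as a covariate. Under DEN/HFD, it was at 1777, 1506, 2244 and 2182 with saline and 2262, 2109 and 1826 with MCOPPB. Hsd17b4, its D-specific counterpart, overlapped between groups in each comparison.

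Pdk4 restrains pyruvate oxidation when fatty acids are burned. It had 30.6, 64.5, 103 and 23.2 normalized counts in DEN/HFD saline and 180.0, 147 and 156 in DEN/HFD MCOPPB. The MCOPPB livers were all higher, with means 2.92-fold apart and a log2 difference of 0.97 ± 0.33 (SE), which did not pass the test (limma adjusted p = 0.758). On chow, Pdk4 was at 81.7, 4.44 and 39.3 with saline and 53.8, 59.8, 167, 77.4 and 26.2 with MCOPPB. With diet as an additive term, the MCOPPB difference was 0.72 ± 0.23 (SE) (adjusted p = 0.345), and 0 of the 35 genes were called by limma in that contrast, with 3 at an unadjusted p under 0.05 (8.57%, beside 6.50%). That fit called 43 genes in all (0.372%).

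Aldh3a2, which oxidises fatty aldehydes, was at 3649.7, 1877 and 3014 in chow saline and 6209.5, 4622, 6757 and 3653 in DEN/HFD saline. The DEN/HFD livers were all higher, although DEN/HFD saline 4 exceeded the highest chow liver by little. The log2 difference was 0.89 ± 0.24 (SE) with a limma adjusted p of 0.193. Bdh1, which interconverts the ketone bodies acetoacetate and 3-hydroxybutyrate, was at 1846, 1134 and 1259 in chow saline and 1956, 1852, 2565 and 1942 in DEN/HFD saline. These did not overlap, by a log2 difference of 0.55 ± 0.22 (SE) (adjusted p = 0.361). With MCOPPB, Bdh1 was at 1615, 2258, 2042, 1141 and 1715 on chow and 2131, 2098 and 2096 under DEN/HFD, with overlap.

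With treatment as an additive term, 19 of 35 genes were higher in DEN/HFD (49.6% of all genes), with a median log2 difference of 0.06. Of the 35, 11 were higher in DEN/HFD at an unadjusted p under 0.05 and none lower (31.4%, beside 16.7% of all genes in either direction and 8.64% higher), while 0 were called by limma, of 153 calls in all (1.32%). The 11 became 3 higher and 0 lower with the RNA integrity number listed first, 7 and 3 with the mitochondrial share as a covariate, and 7 and 2 without chow saline 2 and chow MCOPPB 4. The smallest p were of Fgf21, Aldh3a2, Acaa1b and Pex11a, with log2 differences of 0.65 ± 0.18 (SE), 0.63 ± 0.17 (SE), 0.64 ± 0.18 (SE) and 0.59 ± 0.17 (SE) and limma adjusted p of 0.0739, 0.0787, 0.0840 and 0.0887. With the RNA integrity number listed first, the differences of Fgf21 and Pex11a were 0.21 and 0.31. Without DEN/HFD saline 4, 5 of the 35 were called, these 4 and Vnn1, while calls over all genes rose to 459 (3.98%). Of the 8 macrophage markers, 4 were higher in DEN/HFD with saline at an unadjusted p under 0.05, beside 5.46% of all genes. With MCOPPB on chow, 5 of these markers were higher at that p, beside 9.06% of all genes in either direction. The part of the macrophage markers in the results for the 35 was not tested. The difference between the MCOPPB effects on the 2 diets gave 0 calls among the 35 by limma and 2 at an unadjusted p under 0.05 (5.71%, beside 5.90%), with 8 calls over all genes (0.0692%). The 2, 1 higher and 1 lower, became 1 higher and 7 lower on leaving out chow saline 1, 1 and 6 on leaving out chow MCOPPB 4, and 0 and 6 with the RNA integrity number listed first.

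Between MCOPPB and saline within DEN/HFD, 5 of 35 genes did not overlap (14.3%, beside 6.96% of all genes): Pdk4, Slc25a20 and Crat were higher and Acaa1a and Creb3l3 lower. Between the diets with saline, 7 did not overlap, all higher under DEN/HFD (beside 9.09% of all genes in either direction and 4.73% higher), namely Slc25a20, Hadh, Decr2, Acaa1a, Acaa1b, Aldh3a2 and Bdh1. With MCOPPB, 7 did not overlap (beside 9.31%), with Fgf21, Vnn1, Fabp1, Pex11a and Aldh3a2 higher and Acaa1a and Creb3l3 lower. The comparisons with chow saline, and likewise those with any other group, share their libraries, so the lists are given side by side.

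Other genes of the pathway, from lists made by known role, are given for comparison. Of 33 further PPARalpha targets tested, 1 rose with MCOPPB on chow, Acot3, a peroxisomal acyl-CoA thioesterase. Acot3 had 335, 74.7 and 137 normalized counts in chow saline, 839, 1438, 572, 908 and 1921 in chow MCOPPB, 89.1, 104, 194 and 239.9 in DEN/HFD saline and 228, 229 and 106 in DEN/HFD MCOPPB. All 5 chow MCOPPB livers were above every other liver, by 2.24 ± 0.36 (SE) (log2, limma adjusted p = 0.00724) against chow saline, and DEN/HFD MCOPPB was lower than chow MCOPPB, with a log2 difference of -2.11 ± 0.36 (SE) (adjusted p = 0.0120). The first call was lost without chow saline 2 or 3 (adjusted p = 0.0618 and 0.0664) or without chow saline 2 and chow MCOPPB 4 together (0.0943), and the second without DEN/HFD MCOPPB 3 (adjusted p = 0.144) or with the RNA integrity number listed first as a covariate (adjusted p = 0.139). In all, 8 of the 33 were higher and 2 lower with MCOPPB on chow at an unadjusted p under 0.05 (beside 9.06% of all genes). That count is given for this contrast alone and was not repeated under the alternatives. Among the 8 were 3 fatty acid hydroxylases, Cyp4a31, Cyp4a14 and Cyp4a10, with log2 differences of 1.42 ± 0.30 (SE), 1.92 ± 0.54 (SE) and 1.49 ± 0.44 (SE) and limma adjusted p of 0.0542, 0.213 and 0.243. The Cyp4a genes are paralogs, between which reads could be split, and how much sequence they share was not measured. Fabp2, the intestinal-type binding protein, rose by 1.25 ± 0.24 (SE) in DEN/HFD against chow under MCOPPB (adjusted p = 0.0257), a call lost without chow MCOPPB 1 or 5 or any of the DEN/HFD MCOPPB libraries in turn (adjusted p of 0.0554 to 0.166), or with the RNA integrity number listed first (0.311) or second (0.0650). With treatment as an additive term, Cidec, from the same list, rose by 2.17 ± 0.41 (SE, log2) in DEN/HFD against chow (limma adjusted p = 0.0177). That call was lost without DEN/HFD MCOPPB 3 (adjusted p = 0.0715) or with the RNA integrity number listed first (0.494).

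At an unadjusted p under 0.05 in the 4 comparisons were 3, 3, 3 and 7 of 29 further mitochondrial oxidation genes and 5, 5, 3 and 4 of 27 further peroxisomal genes, beside 9.06%, 4.74%, 11.0% and 12.3% of all genes. Of 10 further ketone body genes, none was called by limma in the 4 comparisons, with 3, 3, 1 and 4 at an unadjusted p under 0.05. Slc16a1, a monocarboxylate transporter, was higher in DEN/HFD than chow under MCOPPB by 1.22 ± 0.28 (SE), short of a call (adjusted p = 0.0567). Nudt19, a CoA hydrolase, was counted in the mitochondrial list without a check of its place in the cell. It fell by 0.78 ± 0.16 (SE, log2) in DEN/HFD against chow under MCOPPB (limma adjusted p = 0.0291). The call was lost without chow MCOPPB 1, 2, 3 or 5 or any DEN/HFD MCOPPB library (adjusted p of 0.0556 to 0.166). It was also lost with the RNA integrity number listed first (0.311) or second (0.0694). Nudt7, a peroxisomal CoA hydrolase of the same list, fell by 1.09 ± 0.19 (SE, log2) with MCOPPB over both diets (limma adjusted p = 0.0102), a call lost with the RNA integrity number listed first (0.105) or second (0.102). It had 4364, 5226 and 5169 in chow saline, 1645, 3072, 1971, 2500.2 and 1579.9 in chow MCOPPB, 2491, 2649, 2452 and 4719 in DEN/HFD saline and 1904, 970.2 and 1709 in DEN/HFD MCOPPB, lower with MCOPPB without overlap on each diet. Acnat2, an acyltransferase from the peroxisomal list, rose by 1.18 ± 0.24 (SE) in the same contrast (adjusted p = 0.0367), a call lost without any of 11 libraries in turn, all but chow saline 1 and chow MCOPPB 2, 4 and 5 (adjusted p of 0.0502 to 0.119), with no filter (0.0923), array weights (0.0621) or the RNA integrity number listed first (0.170) or second (0.608), and without chow saline 2 and chow MCOPPB 4 together (0.137).

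Some genes that follow fasting or the clock were called between the MCOPPB groups of the 2 diets, a contrast with 66 calls over all genes (0.571%). Of 18 genes of the fasted or fed state, Igfbp2 fell by 1.70 ± 0.25 (SE, log2), and Insig2 and Cdkn1a rose by 1.84 ± 0.36 (SE) and 1.53 ± 0.27 (SE) in DEN/HFD MCOPPB against chow MCOPPB, with limma adjusted p of 0.00280, 0.0253 and 0.0152. No other gene of the 18 was called. Of 15 clock genes, Per3 and Tef fell by 1.77 ± 0.33 and 1.43 ± 0.26 (SE, log2; adjusted p of 0.0190 and 0.0179), and 10 were lower at an unadjusted p under 0.05 (beside 12.3% of all genes in either direction). All 5 of these calls were lost with the RNA integrity number listed first as a covariate, and that of Insig2 also with the number listed second (adjusted p = 0.0641). Leaving out single libraries of the groups compared ended the call of Insig2 (chow MCOPPB 1 or 5 or any of DEN/HFD MCOPPB, adjusted p of 0.0530 to 0.162), Per3 (chow MCOPPB 1 or 5, DEN/HFD MCOPPB 1 or 2, 0.0517 to 0.121), Cdkn1a (DEN/HFD MCOPPB 2 or 3, 0.0568 and 0.162) and Tef (DEN/HFD MCOPPB 1 or 2, 0.0799 and 0.0971). With 1 added to the normalized counts before the log, the difference was 3.83 for Cdkn1a and -3.46 for Per3. It was 2.01 for Insig2 and -1.66 for Tef. The deposited scale compresses genes with few reads toward 0. Red blood cell markers differed in the same contrast: 4 of 5 were lower at an unadjusted p under 0.05, with sums of 7421 to 13087 in chow MCOPPB and 3823 to 4675 in DEN/HFD MCOPPB. The part of these differences in the result for Fgf21, which rests on the same libraries, was not tested. Of 30 PPARalpha partners and regulators and 19 genes of the respiratory chain, none was called by limma in the 4 comparisons. At an unadjusted p under 0.05 were 4, 0, 1 and 5 of the former and 0, 0, 1 and 1 of the latter. The shares of all genes were 9.06%, 4.74%, 11.0% and 12.3%.

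Livers of 1 group differed among themselves, and many of the 35 genes shared that variation. Each gene's log2 value was taken as a deviation from its group mean, and the deviations were correlated between genes over the 15 libraries, which describes these libraries and carries no test. Of 595 pairs, 213 (35.8%) had an r over 0.5, and the median r was 0.34. Neither these values nor the counts per library that follow were taken for all genes. The shared variation is thus not shown to be particular to the 35. The deviations of Acadm were most like those of Etfdh (r = 0.97), Hsd17b4 (0.93), Hadha (0.92) and Crot (0.90), which share the libraries and their scaling. Those of Fgf21 (0.20), Fabp1 (-0.08), Acaa1b (0.07) and Etfa (-0.14) were little like it, and Etfb ran opposite (-0.65).

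**Figure D4:**
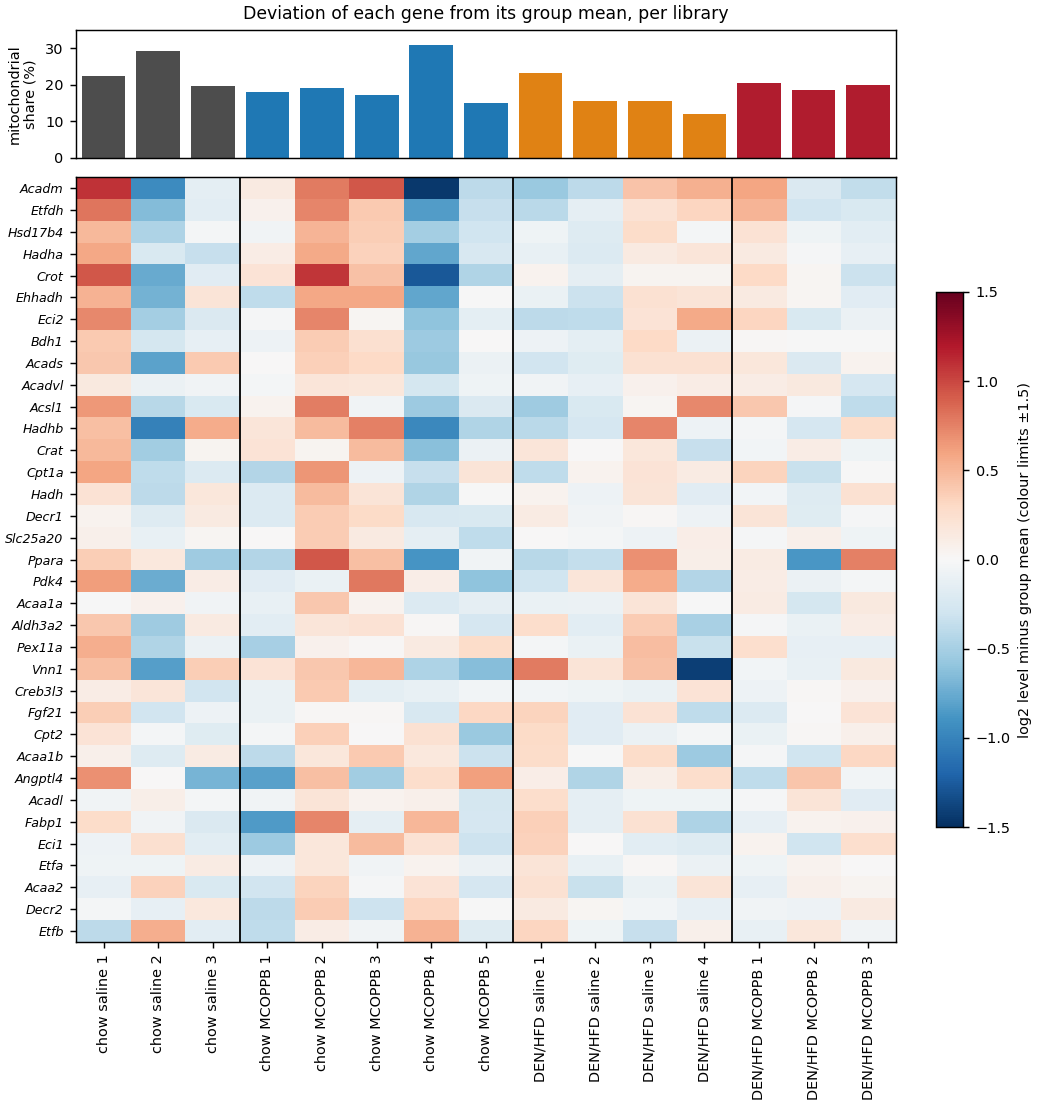
Deviation of each gene from its group mean on the log2 scale (colour, limits ±1.5) in each of the 15 libraries (columns), with genes in the order of their correlation with Acadm, and above it the share of mitochondrial transcripts in percent as bars. The upper rows are red in chow saline 1 and chow MCOPPB 2 and blue in chow saline 2 and chow MCOPPB 4, the libraries with the tallest bars.

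In chow saline 1, 28 of the 35 genes lay above the group mean, and in chow MCOPPB 2, 34 did. In chow saline 2, 27 lay below it, and in chow MCOPPB 4, 22 did, and these 2 libraries had the highest mitochondrial shares. Libraries with lower shares also had many genes below the mean: 30 in chow MCOPPB 5 (14.9%), 29 in DEN/HFD saline 2 (15.4%) and 25 in chow MCOPPB 1 (18.1%). In DEN/HFD saline 3 (15.7%), 27 lay above it. With the mitochondrial share as a term beside the groups, 0 of the 35 genes were called by limma and 9 had an unadjusted p under 0.05, 8 of them lower with a higher share (25.7%, beside 23.7% of all genes), while 537 of all genes were called (4.64%). Acads and Acadm had slopes of -0.58 ± 0.17 and -1.05 ± 0.32 (SE, log2 per 10 percentage points), with limma adjusted p of 0.0581 and 0.0686. Without chow saline 2 and chow MCOPPB 4, 0 of the 35 and 0 of all genes were called (0.00%), with 3 (8.57%) and 718 (6.33%) at an unadjusted p under 0.05, and the slopes were -0.21 ± 0.26 and -0.18 ± 0.56.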

How the data were processed

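Libraries that keep strand were prepared from 250 ng of liver RNA and sequenced from 1 end over 75 nt, per the labels' protocols. Per the submitters' processing notes, Trimmomatic, STAR 2.7.0e, HTSeq and DESeq2 were used with GRCm38 (mm10), in roles that are not given in the sources used here. The authors deposited log2-scale, variance-stabilised levels of 54281 genes in 15 libraries. Their lowest value, 5.49, stands for 0 reads, and 31133 genes were at it throughout. The transformation was inverted to normalized counts, printed as levels. Only 15.2% to 45.2% of each library's low values (under 20 reads) came out whole, within 0.01, so reads were not recovered, depth is an estimate and no counting interval is given.

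Genes that exceeded that value by 1 or more in 3 or more libraries were tested with limma 3.58.1 (R 4.3.3) on the deposited values, with 4 group means over 15 libraries, a mean-variance trend and Benjamini-Hochberg adjustment over 11568 genes. Additive fits used diet and treatment as terms. Symbols, positions and exon lengths came from GENCODE M21, which held 54107 of the IDs.

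The genes and lists were chosen with earlier results of these data known. Genes given with tests are those called, the 6 with the smallest p in each comparison, a fixed list of 14 by levels, and, of other lists, called genes and up to 4 with the smallest p, not all of which are reported here. Filters, scales, weights, covariates, a replicate block and leaving out libraries were tried as alternatives. The script was tested on simulated data.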

Additional observations from a re-analysis of the deposited data

Results flagged for a closer look

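Levels of the 35 genes were checked for a library far from the others in each group of 4 or 5, which made 70 checks, and 4 of them stood out. Chance gives about 1 in 20. Each value is the gap to the nearest other library as a share of the group's range, on the log2 scale. Creb3l3 in chow MCOPPB had a share of 0.807, with library 2 at 2462 normalized counts and the others at 1671 to 1802. Creb3l3 in DEN/HFD saline had 0.838, with library 4 at 2219 and the others at 1782 to 1847. Crot in DEN/HFD saline had 0.956, with library 2 at 2632 and the others at 2999.6 to 3018. Bdh1 in DEN/HFD saline had 0.833, with library 3 at 2565 and the others at 1852 to 1956.

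Acaa1a differed in opposite directions between the diets, higher in every DEN/HFD library with saline and lower in every one with MCOPPB. The difference of the effects was -0.87 ± 0.25 (SE), with a limma p of 0.00280 and an adjusted p of 0.522 over all genes.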

How the results depend on the processing

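Of 88 results for single genes, direction and side of the threshold were kept in 2261 of 2428 alternatives. Calls were lost in 122 alternatives (18 results) and gained in 41 (12 results), and the direction reversed in 4: Pex11a between the diets with MCOPPB, at -0.0029 with the RNA integrity number listed first, and Acss3 between the diets with saline, at -0.042 with that number, between -0.15 and 0.59 with single libraries left out (the lowest without chow saline 2), and -0.15 without chow saline 2 and chow MCOPPB 4 together. The causes were not tested. This last pair, with the highest mitochondrial shares, and the mitochondrial share as a covariate were alternatives added after seeing the data.

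Calls among the 35 genes stayed at 0 in every alternative for MCOPPB against saline on each diet and over both, for the diets with saline, and for the difference of the MCOPPB effects. Between the diets with MCOPPB, the count of 1 went to 0 with no filter, a stricter filter, either integrity number or the replicate block, and ranged over 0 to 1 with single libraries left out. Between the diets over both treatments, the count of 0 went to 1 with quantile normalization, to 3 with the mitochondrial share as a covariate, and ranged over 0 to 5 with single libraries left out.

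Counts of calls over all genes moved as follows, the cause not being tested. On chow, the 37 genes called between MCOPPB and saline became 15 with the integrity number listed first and 22 without the pair, and 16 to 51 with single libraries left out. Under DEN/HFD, 3 became 6 with no filter, 0 with quantile normalization, 8 with the compared groups alone, 8 with array weights, 0 with the integrity number listed second, 5 with the mitochondrial share, 6 without the pair, and 0 to 6 with single libraries left out. Between the diets with saline, 6 became 3 with 8 added to the normalized counts before the log, 3 with array weights, 1 with the integrity number listed first, 3 with the mitochondrial share, 2 without the pair, and 1 to 52 with single libraries left out, the highest being without DEN/HFD saline 4. Between the diets with MCOPPB, 66 became 135 with the compared groups alone, 285 with array weights, 0 and 34 with the integrity number listed first and second, 148 with the mitochondrial share, 117 without the pair, and 18 to 157 with single libraries left out. For the difference of the MCOPPB effects, 8 became 2 with no filter, 4 with 1 or 8 added before the log, 3 and 2 with the integrity numbers, 4 with the mitochondrial share, 4 without the pair, and 2 to 12 with single libraries left out. For MCOPPB over both diets, 43 became 25 with no filter, 3 and 8 with the integrity numbers, 26 without the pair, and 25 to 42 with single libraries left out. For the diets over both treatments, 153 became 56 with no filter, 392 with array weights, 0 and 81 with the integrity numbers, 530 with the mitochondrial share, 240.0 without the pair, and 6 to 459 with single libraries left out, the lowest without DEN/HFD MCOPPB 3.

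The residuals showed no clear pairing of mice by replicate number. Those of same-numbered libraries had a mean correlation of -0.0273 over 19 pairs, with 5 above 0.1. Those of 64 differently numbered pairs had a mean of 0.00838. With 3 to 5 mice per group, these values cannot show whether a weak pairing exists. With the replicate block, calls over all genes were 23 for MCOPPB on chow, 0 for MCOPPB under DEN/HFD, 16 for the diets with MCOPPB, 2 for the difference of the MCOPPB effects and 69 for the diets over both treatments, and Fgf21 between the diets with MCOPPB had an adjusted p of 0.104 (limma). Limma adjusted p rose above 0.05 with the block also for Acot3 on chow (0.0670) and, between the diets with MCOPPB, for Acot3 (0.104), Insig2 (0.0865), Cdkn1a (0.0865), Per3 (0.178), Tef (0.129), Nudt19 (0.195) and Fabp2 (0.196), while Cyp4a10 was called on chow (0.0495) and between the diets with MCOPPB (0.0230). The number of mice, 3 to 5 per group, and the low counts of Fgf21 and Pdk4 limit the precision.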
